A study of Mus musculus with 5 samples.

Results

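The 33 genes described here carry out cholesterol synthesis, its control by SREBP2, cholesterol uptake and storage, and cholesterol efflux. They were taken by gene symbol from a gene count table of mouse prostate tumors, and all 33 were among its 24527 genes. By role, 18 are enzymes of sterol synthesis, 4 control SREBP2, 5 serve uptake, intracellular transport and esterification, and 6 are the LXR receptors and genes of efflux and LXR response. Bulk RNA-seq was done on prostate cancer tissue from 3 castrated and 2 intact TripleTg mice, which were genotype-matched and analyzed at 8 months of age, the castrated mice 4 months of age at surgery. Mice of both groups carried hHGFtg, a human HGF transgene, together with H11hMET/+, Ctnnb1L(Ex3)/+ and PBCre4. PBCre4 drives Cre from a probasin promoter in prostate epithelium, where it turns on human MET behind a stop cassette and yields stabilized β-catenin, whereas hHGFtg does not depend on Cre. No sample without these alleles was compared, so the data bear only on castration within TripleTg tumors. The tumors were on a mixed C57BL/6 and C3H SCID background. Total counts per sample ranged from 18951782 to 28015507.

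Cells make cholesterol from acetyl-CoA through mevalonate, squalene and lanosterol. When sterols in the endoplasmic reticulum are low, SCAP carries SREBP2 to the Golgi, and the released factor turns on synthesis enzymes, while INSIG proteins hold the SCAP and SREBP2 complex back when sterols are plentiful. When oxysterols build up, the LXR receptors turn on genes that move cholesterol out of the cell, such as Abca1, Abcg1 and Apoe, and Mylip, which limits lipoprotein uptake. In the prostate, lipid synthesis responds to androgens, and macrophages are cells in which the LXR genes are abundant.

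Promoter sequence is shown for 3 genes, 1 each of synthesis (Hmgcs1), SREBP2 control (Insig1) and efflux (Abca1). Each holds a motif match, and their levels in every sample are given below. RefSeq windows on GRCm38.p6, the mm10 assembly of the counts, were matched to 26 of the 33 genes, and the 250 bases upstream of each start were searched on both strands. The sterol regulatory element was searched as TCACNCCAC, and the E-box as CACGTG, which reads the same on both strands. The element bound by LXR was searched as a pair of AGGTCA sites 4 bases apart. The sterol regulatory element occurred in 1.05% of all 32851 windows of this length. By gene it was upstream of 1.22% of the 27025 genes with a window, and of 1.27% of those also tested for expression. Among the 26 genes it occurred upstream of 1, Hmgcs1. The capitals mark the match, which begins 137 bases upstream of the start in chr13:119690178-119690257 on the plus strand. The E-box, searched after the counts had been examined, occurred upstream of 6 of the 26 genes, namely Abca1, Insig1, Scap, Dhcr7, Hsd17b7 and Sc5d, and in 6.86% of the 27025 genes with a window, or 9.48% of those that were also tested for expression. It begins 101 bases upstream of Insig1, in chr5:28071274-28071353 on the plus strand, and 147 bases upstream of Abca1, in chr4:53160000-53160079 on the minus strand. No LXR repeat was found in these windows, and it occurred in 5 of all 32851. None of the matches overlapped another, and a match is a run of letters and not a measured binding site.
Hmgcs1: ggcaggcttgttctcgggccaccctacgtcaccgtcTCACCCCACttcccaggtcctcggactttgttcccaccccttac
Insig1: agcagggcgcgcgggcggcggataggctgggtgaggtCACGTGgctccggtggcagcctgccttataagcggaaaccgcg
Abca1: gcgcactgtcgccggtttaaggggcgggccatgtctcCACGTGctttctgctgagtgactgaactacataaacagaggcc

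The labelled tissue was checked against marker genes before the sterol genes were compared. Epithelial markers were present in every sample, and their summed level was 4696, 4333 and 4973 CPM (read counts scaled to a common library size, by the TMM method) in castrated mice 1, 2 and 3, and 6976 and 4335 CPM in intact mice 1 and 2. Genes of the secretory prostate stood apart in 1 animal. Tgm4, a secreted prostate transglutaminase, was at 1347 CPM in intact mouse 2 and at or below 0.419 CPM elsewhere. Pbsn, which encodes probasin, was at 5.21 CPM in intact mouse 2 and at or below 0.454 CPM elsewhere. The intact group of 2 therefore held animals unlike each other in differentiated prostate transcripts, and their levels are given separately below.

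Marker levels of other cell types also differed between the castrated and intact groups, though no marker passed adjustment in the test described below. All 16 macrophage markers had a higher mean in castrated mice, with a median log2 fold change of 1.40. For 14 of them every castrated sample was above both intact samples, as for 17% of all genes tested. The summed level of the 16 markers was 3349, 9949 and 4193 CPM in castrated mice 1, 2 and 3, and 1517 and 2211 CPM in intact mice 1 and 2. No macrophage marker was at 0 in any sample, and the most abundant, Lyz2, was at 1596, 4736 and 1664 CPM against 558 and 1072 CPM. Adipocyte markers summed to 137, 833 and 768 CPM in castrated mice 1, 2 and 3, and to 137 and 157 CPM in intact mice, with Fabp4 the most abundant. Adipoq, which defines adipocytes, was at 0.523, 68.8 and 68.3 CPM in the castrated mice and at 0 and 0.0930 CPM in the intact mice, so castrated mouse 1 was near the intact level. Smooth muscle markers, led by Acta2, summed to 430, 773 and 730 CPM against 253 and 165 CPM, with none at 0. All 12 proliferation markers were lower in every castrated sample, with Mki67 at 18.7, 30.5 and 40.3 CPM against 101 and 128 CPM. Steroidogenic markers were low, between 21.4 and 51.7 CPM in sum.

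Across the transcriptome, castrated and intact tumors were compared with edgeR's quasi-likelihood F-test with Benjamini-Hochberg adjustment. Of 14612 genes tested, 0 (0%) met the threshold of the study's methods, which is an adjusted p under 0.05 together with a log2 fold change beyond 1 in either direction. The lowest adjusted p of any gene was 0.289. Over the genes tested, the samples did not fall cleanly into the 2 groups. Castrated mouse 1 correlated more closely with intact mouse 1 (0.941, on log2 CPM) than with castrated mouse 2 (0.929) or 3 (0.906). Intact mouse 1 correlated with intact mouse 2 at 0.869. At an unadjusted p under 0.05 there were 2195 genes, 1277 higher in castrated mice (8.74% of those tested) and 918 lower (6.28%). By the same threshold DESeq2 called 989 genes, edgeR's likelihood ratio test 369 and limma voom 0. All 33 sterol genes passed the filter on low counts, 13 with a higher and 20 with a lower mean in castrated mice, and their median log2 fold change was -0.16, beside -0.03 over all genes tested. Unadjusted p was under 0.05 for 4 sterol genes higher in castrated mice, Nr1h3, Abca1, Mylip and Apoe, and for 1 lower, Srebf2. In 7 of the 33, every castrated sample was above both intact samples (17% of genes tested), and in 3 every castrated sample was below both (16.1%). These shares of the 33 are near those of all genes, so they are no result about the 33 genes as a whole, and the roles are described one by one. The smallest adjusted p among the 33, from the same edgeR test, was 0.297 for Nr1h3. DESeq2, with Benjamini-Hochberg adjustment, called 2 of the 33 genes at the same threshold, Nr1h3 with an adjusted p of 0.0322 and Apoe with an adjusted p of 0.000206. In edgeR's quasi-likelihood test no sterol gene passed, and the differences below are described at that limit. In bulk tissue, fewer cells of a type and less RNA per cell cannot be told apart.

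**Figure D1:**
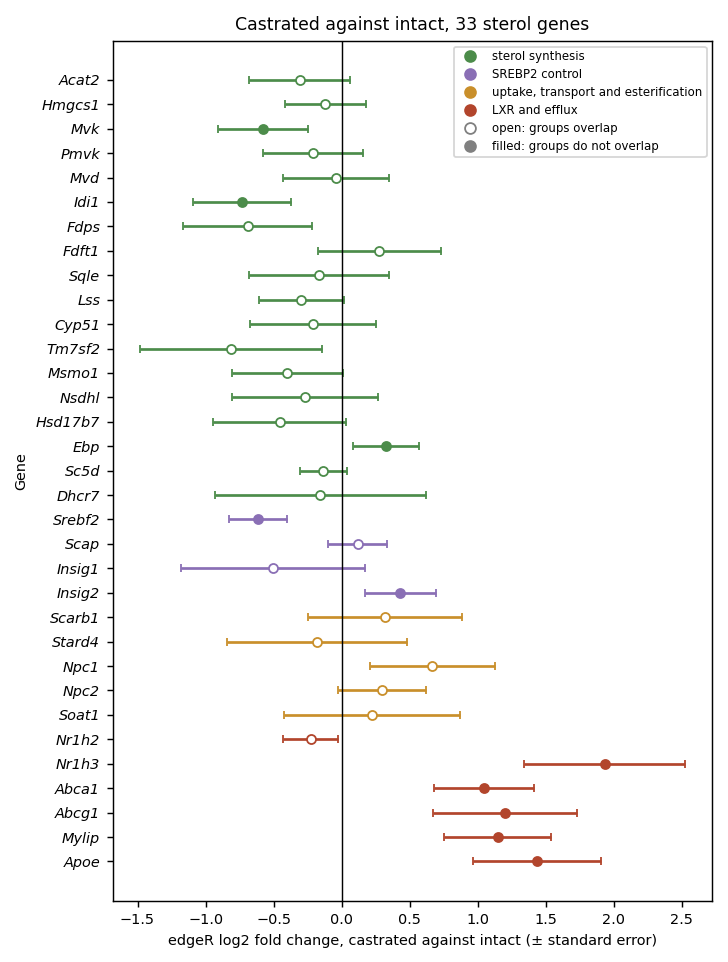
Log2 fold change from the edgeR fit (x axis, castrated against intact, with standard error) for the 33 sterol genes (y axis), colored by role, with filled points where the 3 castrated and 2 intact samples do not overlap. Genes of LXR and efflux other than Nr1h2 lie between 1.05 and 1.93, and the 18 synthesis genes lie between -0.81 and 0.32, though 15 of these change sign when 1 sample is left out.

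Of the 4 roles, efflux and LXR response genes gave the clearest separation between the groups. Apoe, Abca1, Abcg1, Mylip and Nr1h3 were each higher in all 3 castrated mice than in both intact mice, by 2.07 to 3.81 fold between the fitted group means. Of all genes tested, 17% had every castrated sample above both intact samples. The median log2 fold change of the 6 genes in this role was 1.17, and it was between 1.05 and 1.37 when each sample was left out in turn. Levels in intact mice 1 and 2 were close for most of these genes, with a median fold of 1.24 between them, against 1.49 over all genes tested.

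Apoe, the apolipoprotein that carries lipid out of macrophages and other cells, lies at chr7:19696244-19699188. Its level was 2280, 3579 and 2925 CPM in castrated mice 1, 2 and 3, and 998 and 1171 CPM in intact mice 1 and 2. The groups did not overlap, the intact mice were close to each other, and castrated mouse 2 was the highest. The log2 fold change was 1.43 ± 0.47 (standard error) with an edgeR p of 0.0266. Per transcript length Apoe was the most abundant of the 33 genes, with a mean of 3195 TPM (counts scaled by gene length and library) over the 5 samples.

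Abca1, the transporter that loads cholesterol onto lipid-poor apolipoproteins, lies at chr4:53030789-53159895. It was at 241, 500 and 444 CPM in castrated mice and at 177 and 205 CPM in intact mice. Castrated mouse 1 was close to the intact pair, and the other castrated mice were well above it. The log2 fold change was 1.05 ± 0.37 with an edgeR p of 0.0338. Abcg1, which passes cholesterol to high-density lipoprotein, lies at chr17:31057694-31117981 and was at 111, 144 and 144 CPM against 89.2 and 26.4 CPM. The castrated values were close together, and the intact values differed by 3.37 fold. Its log2 fold change was 1.20 ± 0.53 with an edgeR p of 0.0701, and it was 2.35 without intact mouse 1 and 0.53 without intact mouse 2.

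Mylip, a ubiquitin ligase that sends lipoprotein receptors for degradation, lies at chr13:45389742-45411940. It was at 84.1, 154 and 192 CPM in castrated mice and at 56.2 and 73.2 CPM in intact mice. As for Abca1, castrated mouse 1 was nearest to the intact mice. The log2 fold change was 1.15 ± 0.39 with an edgeR p of 0.0310.

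The receptors themselves differed in level and in the order of the samples. Nr1h3, which encodes LXRα, lies at chr2:91184061-91195116 and was at 8.23, 8.15 and 19.1 CPM in castrated mice and at 2.20 and 4.0 CPM in intact mice. These are low levels, resting on 236, 152 and 392 reads against 49 and 86. Castrated mouse 3 was above the rest, and the groups did not overlap. The log2 fold change was 1.93 ± 0.59 with an edgeR p of 0.0205, and without castrated mouse 3 it was 1.41 with an edgeR p of 0.0535. Other sterol transport genes were also highest in castrated mouse 3, among them Apoa1, the main protein of high-density lipoprotein, at 1650 CPM against 4.78 CPM or less elsewhere, and Lcat, which esterifies cholesterol in lipoproteins, at 39.5 CPM against 1.48 CPM or less. Their relation to the level of Nr1h3 was not tested. Nr1h2, which encodes LXRβ, was between 50.5 and 67.1 CPM in all 5 samples, its groups overlapped, and its log2 fold change was -0.23 ± 0.20. Per length, the mean level of Nr1h2 was 67.1 TPM and that of Nr1h3 was 9.45 TPM.

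**Figure D2:**
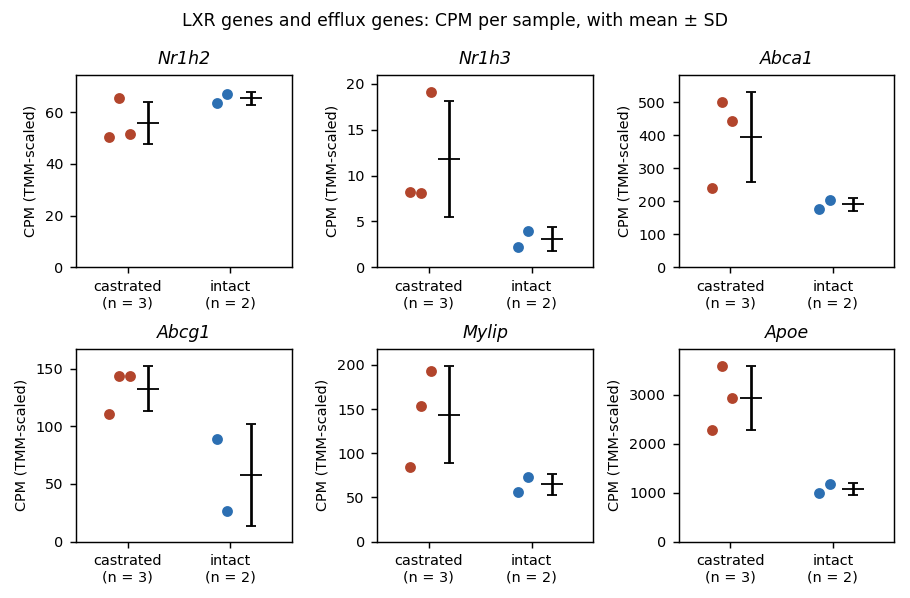
TMM-scaled CPM (y axes, from 0) of the 6 LXR and efflux genes in each castrated (red) and intact (blue) sample, with the mean and SD beside the points. In 5 of the 6 panels every red point lies above both blue points, as for 17% of all genes tested, and in the Nr1h2 panel the groups overlap.

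These genes were higher in the same samples as the summed macrophage markers described above, and as the summed smooth muscle markers. The level of each gene was also set against the summed macrophage markers of the same sample, as a description, since that sum was itself higher in every castrated sample. Apoe amounted to 68.1%, 36.0% and 69.8% of that sum in castrated mice 1, 2 and 3, and to 65.8% and 52.9% in intact mice 1 and 2. The means were 57.9% ± 19 (SD, n = 3) and 59.4% ± 9.11 (SD, n = 2), so on this scale the groups overlapped. Abca1 amounted to 7.19%, 5.03% and 10.6% against 11.7% and 9.29%, and also overlapped with Lyz2 in the sum. Abcg1, at 3.30%, 1.45% and 3.43% against 5.88% and 1.20%, and Mylip, at 2.51%, 1.54% and 4.59% against 3.71% and 3.31%, overlapped likewise. Nr1h3 was at 0.246%, 0.0819% and 0.455% against 0.145% and 0.181%. On this scale the groups overlapped for all 5 genes. Lyz2 is a large share of that sum, and with it left out, an alternative chosen after seeing the data, Abca1 was at 13.7%, 9.6% and 17.55% in castrated mice against 18.45% and 18.04% in intact mice, so every castrated sample was below both intact samples. The other 4 genes overlapped without Lyz2 too, with Apoe at 130%, 68.7% and 116% against 104% and 103%. The adipocyte marker sum of castrated mouse 1 was 137 CPM, beside 137 and 157 CPM in the intact mice. Ratios to the smooth muscle sum were not computed, so the macrophage scale is not singled out by these values. The part of macrophages, adipocytes and smooth muscle in the levels of the 5 genes was not tested.

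**Figure D3:**
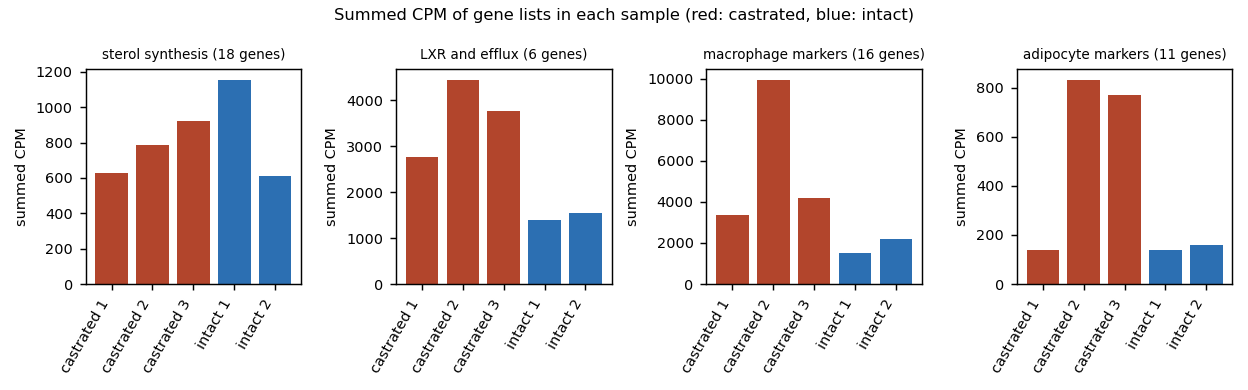
Summed CPM (y axes, from 0) of 2 groups of sterol genes and of macrophage and adipocyte markers in each sample, with castrated samples in red and intact samples in blue. The LXR and efflux sum and the macrophage sum are above both intact samples in all 3 castrated samples, whereas the synthesis sum is highest in intact mouse 1 and the adipocyte sum is high only in castrated mice 2 and 3.

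The direction of the sterol synthesis genes depended on which intact mouse was in the comparison. Of the 18 enzymes, 16 had a lower and 2 a higher mean in castrated mice, with a median log2 fold change of -0.24, but 16 of the 18 were higher in castrated mice once intact mouse 1 was left out, with a median of 0.24. Without intact mouse 2 the median was -0.71 and 17 were lower. None of the 18 had an unadjusted p under 0.05, beside 15% of all genes tested, and the groups did not overlap for 3, beside 33.1% of all genes tested. The 2 intact mice stood apart from each other. Intact mouse 1 had the highest level of all 5 samples for 14 of the 18 enzymes, and it was above intact mouse 2 for 16 of 18, beside 46% of all genes tested. The median fold between the intact mice was 1.91 over the 18 enzymes and 1.49 over all genes tested. The summed level of the 18 was 625, 785 and 920 CPM in castrated mice 1, 2 and 3, and 1156 and 610 CPM in intact mice 1 and 2, so the castrated sums lay between the intact ones. Intact mouse 1 also had the highest epithelial sum and intact mouse 2 the secretory transcripts, and the part of tissue makeup in the enzymes' levels was not tested.

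The first steps of the pathway lead from acetyl-CoA to mevalonate. Hmgcs1, which makes HMG-CoA and whose promoter holds the sterol element shown above, lies at chr13:119690351-119708260. It was at 101, 134 and 184 CPM in castrated mice and at 168 and 136 CPM in intact mice. The castrated values spanned both intact values, and the log2 fold change was -0.12 ± 0.30. Its exons share 12.1% of their bases with an antisense gene, Gm48342, and the strand setting of the counts is not stated, so reads in the shared stretch cannot be assigned with certainty. Acat2, the thiolase that makes acetoacetyl-CoA, had a log2 fold change of -0.31 ± 0.37.

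Of the enzymes that turn mevalonate into isoprenoid units, Mvk and Idi1 were lower in every castrated sample. Mvk, mevalonate kinase, was between 10.6 and 11.1 CPM in castrated mice and at 12 and 20.5 CPM in intact mice, with a log2 fold change of -0.58 ± 0.33. Idi1, the isomerase of isopentenyl diphosphate, was between 7.99 and 11.7 CPM against 20.4 and 12 CPM, with a log2 fold change of -0.73 ± 0.36. The exons of Idi1 share 9.22% of their bases with Gm48574 on the opposite strand. For both genes, the castrated sample nearest to the intact mice was within 1 CPM of them. Pmvk and Mvd, the next kinase and the decarboxylase, were between 9.02 and 19.4 CPM across the samples with overlapping groups. Fdps, which makes farnesyl diphosphate, had a log2 fold change of -0.69 ± 0.47, but this was 0.03 without intact mouse 1. Its exons share 26.7% of their bases with Gm43738, a gene on the same strand.

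Squalene and lanosterol are made by the next enzymes. Sqle, squalene epoxidase, was at 29.1, 59.3 and 68.6 CPM in castrated mice and at 83.0 and 34.3 CPM in intact mice. Its highest and 2nd lowest values were the 2 intact mice, and its log2 fold change was -0.17 ± 0.52. Fdft1, squalene synthase, had a log2 fold change of 0.28 ± 0.45. Its exons share 18.3% of their bases with Ctsb, a lysosomal protease on the opposite strand that was at 1515, 6738 and 2796 CPM in castrated mice against 1192 and 805 CPM in intact mice, and the part of this overlap in the level of Fdft1 was not tested. Lss, which closes the ring to give lanosterol, was between 19.8 and 37.6 CPM with overlapping groups.

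The steps from lanosterol to cholesterol included the widest spread between the intact mice. Cyp51, lanosterol demethylase, was at 58.1, 90.4 and 95.6 CPM in castrated mice and at 137 and 51.5 CPM in intact mice. All castrated values lay between the intact ones, and the log2 fold change was -0.21 ± 0.46. Dhcr7, which catalyzes the last reduction to cholesterol, was at 87.9 CPM in intact mouse 1 and 13.5 CPM in intact mouse 2, a 6.52-fold difference, and between 28 and 55.0 CPM in castrated mice. Tm7sf2, a sterol reductase, had the lowest log2 fold change of the 18, -0.81 ± 0.67, which was 0.75 without intact mouse 1. It shares 12.1% of its exon bases with Vps51 on the same strand. Msmo1, Nsdhl and Hsd17b7, which remove the methyl groups at carbon 4, had log2 fold changes of -0.40, -0.27 and -0.46, each positive without intact mouse 1. Ebp, the sterol isomerase, was the only enzyme above both intact mice in every castrated sample, at 35.2 to 52.3 CPM against 34.0 and 34.3 CPM, with a log2 fold change of 0.32 ± 0.24. Sc5d, the sterol desaturase, was the steadiest of the 18, between 81.0 and 98.1 CPM in all 5 samples.

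**Figure D4:**
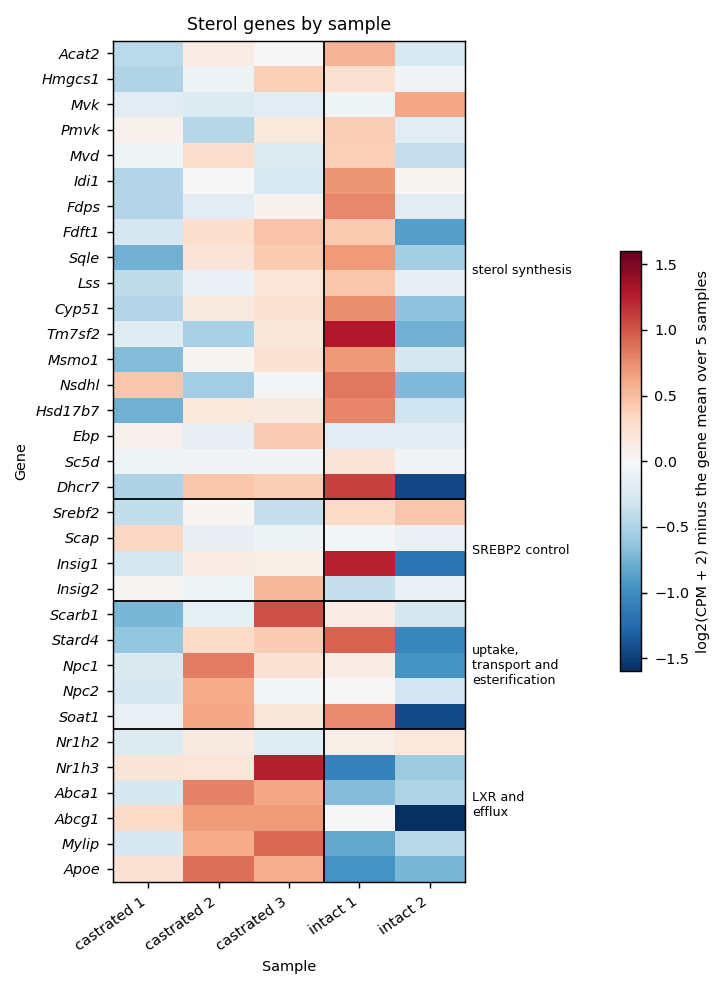
Level of each of the 33 genes (rows, grouped by role) in each sample (columns), as log2(CPM + 2) minus that gene's mean over the 5 samples. Intact mouse 1 is the reddest column for 14 of the 18 synthesis enzymes and intact mouse 2 is below the gene's mean for most of them, while in the LXR and efflux rows other than Nr1h2 both intact columns are below every castrated column.

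The genes that control SREBP2 did not move as one group, with 2 higher and 2 lower means and a median log2 fold change of -0.19, which was 0.25 without intact mouse 1. Srebf2, which encodes SREBP2 itself, lies at chr15:82147269-82204960 and was at 93.8, 127 and 95.3 CPM in castrated mice and at 153 and 169 CPM in intact mice. Every castrated sample was below both intact samples, and the intact mice were close to each other, unlike for most synthesis enzymes. The log2 fold change was -0.61 ± 0.21 with an edgeR p of 0.0319, the only one under 0.05 among sterol genes lower in castrated mice. Proliferation markers were lower in the same samples, and their part in the level of Srebf2 was not tested. The p of Srebf2 was 0.0188 with DESeq2 and 0.0321 with limma voom. It was not under 0.05 with edgeR's likelihood ratio test (0.0925) or with limma on log2(TPM + 1) (0.0867). With the replicate number as a block in edgeR's quasi-likelihood test, the p of Srebf2 was 0.113. In that test with no block, it was 0.0876 without castrated mouse 1, and it was also above 0.05 without castrated mouse 3.

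Insig1, which retains SCAP and is itself an SREBP target, lies at chr5:28071412-28078662. It was at 43.4, 58.1 and 57.5 CPM in castrated mice, and at 128 and 22.7 CPM in intact mice. As for Cyp51 and Dhcr7, the castrated values lay between the intact ones, which differed by 5.63 fold. The log2 fold change of Insig1 was -0.50 ± 0.68. Insig2, the second INSIG protein, was between 69.0 and 105 CPM in castrated mice and at 55.5 and 66.9 CPM in intact mice, with a log2 fold change of 0.43 ± 0.26 and groups that did not overlap. Scap, the escort of SREBP2, was lowest at 71.8 CPM in castrated mouse 2 and had a log2 fold change of 0.12 ± 0.22 with overlapping groups. Its exons share 13.2% of their bases with 5830462I19Rik on the opposite strand, which bears on its reads there as for Hmgcs1.

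Uptake, transport and esterification genes overlapped between the groups in all 5 cases. Their median log2 fold change was 0.30, and it was 1.24 without intact mouse 1 and 0.02 without castrated mouse 2. Scarb1, the receptor that takes up cholesteryl esters from high-density lipoprotein, was at 29.7, 45.6 and 106 CPM in castrated mice and at 55.1 and 42.0 CPM in intact mice. Castrated mouse 3 alone was above both intact mice, as it was highest for Nr1h3, Apoa1 and Lcat, and the log2 fold change was 0.32 ± 0.56, or -0.36 without castrated mouse 3. Soat1, which esterifies cholesterol for storage, was at 121, 203 and 150 CPM against 223 and 47.6 CPM, so the intact mice were its highest and lowest samples and its log2 fold change was 0.22 ± 0.65. Npc1 and Npc2, which release cholesterol from lysosomes, were at 83.2 to 174 CPM against 107 and 50.0 CPM, and at 292 to 525 CPM against 348 and 280 CPM. Stard4, a sterol carrier between membranes, was at 18 to 77.2 CPM across samples. All 5 genes were higher in intact mouse 1 than in intact mouse 2, and castrated mouse 1 was the lowest castrated sample for each.

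**Figure D5:**
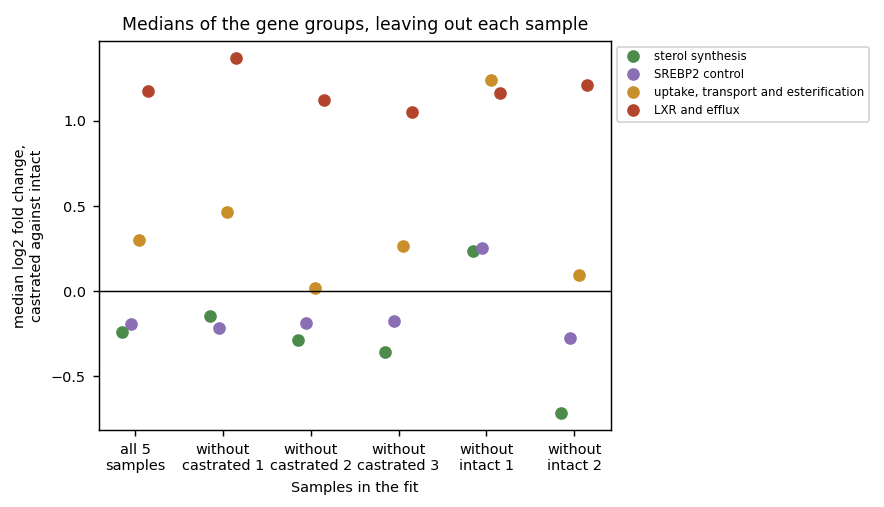
Median log2 fold change (y axis, castrated against intact) of each of the 4 roles in the fit of all 5 samples and after leaving out each sample (x axis). The LXR and efflux median stays between 1.05 and 1.37, whereas the synthesis median goes from -0.71 without intact mouse 2 to 0.24 without intact mouse 1.

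The number of sterol genes with an unadjusted p under 0.05 is given beside the share of all genes tested in the same fit. It was 5 of 33 in the full data, where 15% of all genes tested were under 0.05. It was 4 without castrated mouse 1 (16.5% of all genes tested in that fit), 2 without castrated mouse 2 (7.62%), 0 without castrated mouse 3 (7.10%), 8 without intact mouse 1 (22.8%) and 6 without intact mouse 2 (14.1%). The counts stayed near these shares and are no result about the sterol genes. Each of Apoe, Abca1, Abcg1, Mylip and Nr1h3 kept a positive log2 fold change in every one of these leave-one-out fits, the lowest being 0.53 for Abcg1, and Srebf2 kept a negative one, between -0.76 and -0.54. By contrast, 15 of the 18 synthesis enzymes changed direction in at least 1 of them.

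On the TPM scale, which divides by gene length and allows levels of different genes to be compared, the 33 genes spanned 9.45 TPM for Nr1h3 to 3195 TPM for Apoe as means over the 5 samples. Npc2 followed at 251 TPM and Msmo1 at 106 TPM. Among synthesis enzymes, Msmo1, Hmgcs1 (92.4 TPM) and Sc5d (86.5 TPM) were the most abundant, and Idi1 (9.89 TPM) and Lss (10.0 TPM) the least. Srebf2 was at 63.0 TPM and its partners Scap, Insig1 and Insig2 at 42.4, 55.3 and 57.1 TPM.

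A further 46 genes of sterol metabolism, none among the 33, were examined in the same fit, and 45 passed the filter on low counts. Of these, 23 had a higher and 22 a lower mean in castrated mice, and the median log2 fold change was 0.05. Unadjusted p was under 0.05 for 4, all higher in castrated mice, and for 0 lower, and none passed adjustment. This is near the 8.74% of all genes tested that were higher at that p. In 6 of the 45 every castrated sample was above both intact samples, and in 4 below both, beside 17% and 16.1% of all genes tested. These counts are no result about the list, and the genes named are those with the smallest p. Pltp, a phospholipid transfer protein and LXR target, was at 79.6, 191 and 162 CPM in castrated mice and at 21.2 and 30.4 CPM in intact mice, with a log2 fold change of 2.49 ± 0.46. Its castrated values were all more than double the intact ones. Nceh1, which hydrolyzes cholesteryl esters, was at 60.6, 202 and 94.1 CPM against 30.8 and 23.9 CPM, with a log2 fold change of 2.12 ± 0.57. Lipa, the lysosomal lipase that frees cholesterol from esters, was at 133, 768 and 338 CPM against 83.3 and 46.1 CPM, with a log2 fold change of 2.67 ± 0.82. Nceh1 and Lipa were both highest in castrated mouse 2, the sample with the highest macrophage sum. Gramd1b, which carries cholesterol from the plasma membrane to the endoplasmic reticulum, was at 97.6, 99.6 and 78.0 CPM against 48.4 and 34.1 CPM, with a log2 fold change of 1.15 ± 0.25.

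The genes of this list with the smallest p among those lower in castrated mice overlapped between the groups. Lpcat3, a phospholipid remodelling enzyme and LXR target, was at 120, 81.4 and 82.4 CPM in castrated mice and at 116 and 225 CPM in intact mice, with a log2 fold change of -0.85 ± 0.35. Abca5, a transporter of the same family as Abca1, was at 15.2, 29.6 and 24.1 CPM against 25.9 and 89.8 CPM, with a log2 fold change of -1.34 ± 0.57. Gramd1a, a relative of Gramd1b, was at 74.4, 52.1 and 48.9 CPM against 115 and 72.1 CPM, with a log2 fold change of -0.68 ± 0.30. For Lpcat3 and Abca5 the highest sample was intact mouse 2, the animal with secretory prostate transcripts.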

How the data were processed

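The authors sequenced paired-end RiboErase total RNA libraries. Reads were trimmed (Trimmomatic 0.39), aligned to mm10 (STAR 2.7.9) and counted per gene (HTSeq 2.0.2), and the deposited values are these raw counts. The table's gene lengths, deposited in kilobases, served to compute TPM. The strand setting is not given in the sources used here. The transgenes have no row of their own and were not analysed here.

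The fits used edgeR 4.0.16, limma 3.58.1 and DESeq2 1.42.0 under R 4.3.3. A gene was tested where CPM exceeded 1 in 2 or more samples. The main test was edgeR's quasi-likelihood F-test in its current form, with TMM scaling and Benjamini-Hochberg adjustment over every gene tested, on counts where the study's methods name TPM. Standard errors are the log2 fold change over the root of the F statistic. TMM factors ranged from 0.944 to 1.04 and the common dispersion was 0.238. No 2 samples of a group agreed within sampling noise. Groups came from the sample titles, and each sample was taken as 1 animal, which the labels do not state, so p-values measure the spread between these samples. The scripts were tested on simulated counts.

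The 33 genes and the gene lists were chosen with earlier results of these data known, so lists carry counts and medians and no test. All 33 genes are named. Values in every sample are given for genes with an unadjusted p under 0.05, for genes separating the groups with a log2 fold change beyond 1, and for Hmgcs1, Sqle, Cyp51, Srebf2, Insig1, Scarb1, Soat1, Abca1, Abcg1, Nr1h3 and Apoe. Of the other sterol genes, those with the 3 smallest p in each direction are named. Lipa, Ctsb, Dhcr7, Apoa1 and Lcat were detailed after their values were seen. Promoter windows are RefSeq's, and none was matched to Abcg1, Fdft1, Fdps, Npc1, Scarb1, Sqle and Stard4. The E-box search was added after the counts had been examined. A further marker gene and the sum over its list are not reported here.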

Additional observations from a re-analysis of the deposited data

How the results depend on the processing

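In all, 15 other settings were run: DESeq2, edgeR's likelihood ratio test, limma voom, 2 other scalings, 2 other filters on low counts, log2(TPM + 1) with limma, the replicate block, leaving out each sample, and edgeR's older quasi-likelihood fit, which was chosen after seeing the data. Of the 33 genes, 13 kept their direction in all of them, 20 changed direction without some sample and 9 in another setting. With scaling by library size only, the groups did not overlap for 8 of the 33 genes (6 higher and 2 lower in castrated mice) instead of 10. Ebp and Idi1 overlapped under that scaling. DESeq2 called 989 genes, Nr1h3 (log2 fold change 1.94) and Apoe (1.43) among them, and the likelihood ratio test called 369, none of the 33. Leaving out each sample gave 0 to 1 called genes (the 1 without intact mouse 1 was Coch, log2 fold change -8.97, which is not a sterol gene), 0 to 8 of the 33 at an unadjusted p under 0.05 (7.10% to 22.8% of all genes tested), and 11 to 28 whose groups did not overlap. The share of all genes tested that did not overlap was 37.7% to 49.8% without a castrated mouse, where the count was 11 each time, 72% without intact mouse 1 (23 of the 33) and 67.4% without intact mouse 2 (28 of the 33). Medians then ranged from -0.71 to 0.24 for synthesis, from -0.28 to 0.25 for SREBP2 control, from 0.017 to 1.24 for uptake, transport and esterification, and from 1.05 to 1.37 for LXR and efflux. The SREBP2 control median was 0.026 with limma voom, -0.16 with CPM above 1 in all samples, and 0.16 with log2(TPM + 1), a scale that moved the median of all genes to 0.13. On that scale the synthesis median was -0.044, with 8 of the 18 enzymes higher and 10 lower in castrated mice. Reversed log2 fold changes were 0.29 for Dhcr7 and 0.053 for Stard4 with limma voom, and, with log2(TPM + 1), 0.12 for Mvd, 0.012 for Sqle, 0.049 for Cyp51, 0.011 for Nsdhl, 0.0077 for Sc5d, 0.43 for Dhcr7, 0.083 for Insig1 and 0.19 for Stard4. Leaving out each sample gave log2 fold changes of -0.72 to 0.21 for Acat2, -0.36 to 0.069 for Hmgcs1, -0.54 to 0.17 for Pmvk, -0.46 to 0.49 for Mvd, -1.20 to 0.028 for Fdps, -0.29 to 1.13 for Fdft1, -0.71 to 0.63 for Sqle, -0.61 to 0.063 for Lss, -0.80 to 0.68 for Cyp51, -1.59 to 0.75 for Tm7sf2, -0.85 to 0.19 for Msmo1, -0.90 to 0.76 for Nsdhl, -0.97 to 0.27 for Hsd17b7, -0.30 to 0.024 for Sc5d, -0.99 to 1.77 for Dhcr7, -0.051 to 0.21 for Scap, -1.31 to 1.24 for Insig1, -0.36 to 0.65 for Scarb1, -0.92 to 1.24 for Stard4 and -0.54 to 1.75 for Soat1, of which 16 reversed without intact mouse 1. The cause of these changes was not tested.

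With the replicate number as a block, 1 of the 33 genes (Mylip) had an unadjusted p under 0.05, the SREBP2 control median was 0.031, and log2 fold changes were reversed for Mvd (0.13), Dhcr7 (0.18) and Scarb1 (-0.39). Whether the numbers pair the samples cannot be settled, because the deviations of the 2 intact samples from their mean mirror each other. Deviations from the group means correlated at 0.18 for the animals numbered 1 and at -0.03 for those numbered 2. The largest correlation was 0.23, between castrated mouse 3 and intact mouse 2. Depth limits Nr1h3 most, with 49 reads in intact mouse 1, the fewest of any of the 33 genes in any sample.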

Other observations

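Among other genes of sterol transport, chosen after their values were seen, 2 apolipoprotein genes differed between single animals and not by group. Apoa1, the main protein of high-density lipoprotein, was at 1650 CPM in castrated mouse 3, at 4.78 and 0 CPM in castrated mice 1 and 2, and at 0.224 and 0.139 CPM in intact mice 1 and 2. Apoc1, an apolipoprotein gene of the same cluster as Apoe, was at 239 CPM in castrated mouse 3 and 224 CPM in intact mouse 2, and between 0.672 and 4.08 CPM in the other 3 samples. Apoc1 therefore did not share the order of Apoe, which was at or above 2280 CPM in all 3 castrated mice. Star, which brings cholesterol into mitochondria for steroid synthesis, was at 12, 1.18 and 1.12 CPM in castrated mice and at 23.5 and 3.53 CPM in intact mice, with overlapping groups. No explanation of these levels was tested.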
